A study of Mus musculus with 12 samples.

Results

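The 10 genes described here encode the 4 signalling chains of the CD3 complex (Cd3d, Cd3e, Cd3g and Cd247) and 6 surface or nuclear markers of T-cell subsets (Cd4, Cd8a, Cd8b1, Cd5, Cd28 and Foxp3). They were chosen by gene symbol from the 33100 gene rows of the count table, and all 10 were found and passed the filter on low counts. Bulk RNA sequencing had been done on mouse cells sorted as natural killer (NK) cells, per the labels, from spleen and from tumor. In each tissue 3 libraries came from control mice, labelled WT here, and 3 from mice in which 1 gene had been conditionally knocked out (cKO). These 12 libraries make 4 groups of 3: WT and cKO in spleen, and WT and cKO in tumor. The age and strain of the mice, the tumor model, the Cre driver and the sort gates were not given in the sources used here. Nothing in the labels ties a library to its own animal; the p-values below therefore reflect the scatter among these libraries, which may be technical.

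The T-cell receptor binds antigen but has no signalling tail of its own, and the CD3 gamma, delta, epsilon and zeta chains carry the signal into the cell. Lck and ZAP-70 act on these chains, CD4 and CD8 bring Lck to the receptor, CD28 gives the costimulatory signal, and CD5 dampens the response. Foxp3 is the transcription factor that defines regulatory T cells. Mouse NK cells are usually defined as cells without surface CD3, but they do use the zeta chain, encoded by Cd247, as a signalling adaptor of activating receptors such as NKp46.

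Cd3g and Cd3d lie head to head on chromosome 9 with 1354 bases between their 5′ ends, and the cluster with Cd3e spans 40056 bases (GRCm38, positions of the count table). Because these 3 genes varied together across the libraries, the 250 bases before their RefSeq start sites are shown, with those of Cd247, the chain that differed from them between tissues. RefSeq windows (GRCm38.p6) were matched for 7 of the 10 genes. Sequences run 5′ to 3′ on the strand of the gene, and capitals mark each match, on either strand, to 1 of 5 motifs. RUNX factors were searched by the letters TGTGGT. The letters used for ETS factors were AGGAAG. Those for GATA factors were AGATAA. An E-box was any match to CAGNTG. The TATA box was written as TATAAA.
Cd3g, chr9:44980432-44980681, minus strand: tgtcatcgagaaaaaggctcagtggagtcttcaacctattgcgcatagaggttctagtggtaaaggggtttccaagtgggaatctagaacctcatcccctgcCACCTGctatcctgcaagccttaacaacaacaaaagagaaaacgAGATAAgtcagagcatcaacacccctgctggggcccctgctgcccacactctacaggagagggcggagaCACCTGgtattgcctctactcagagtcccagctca
Cd3d, chr9:44981536-44981785, plus strand: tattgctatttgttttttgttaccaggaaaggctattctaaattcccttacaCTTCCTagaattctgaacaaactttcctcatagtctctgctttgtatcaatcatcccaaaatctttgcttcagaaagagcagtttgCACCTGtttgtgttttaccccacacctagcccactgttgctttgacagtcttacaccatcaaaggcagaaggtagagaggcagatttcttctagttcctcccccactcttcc
Cd3e, chr9:45009612-45009861, minus strand: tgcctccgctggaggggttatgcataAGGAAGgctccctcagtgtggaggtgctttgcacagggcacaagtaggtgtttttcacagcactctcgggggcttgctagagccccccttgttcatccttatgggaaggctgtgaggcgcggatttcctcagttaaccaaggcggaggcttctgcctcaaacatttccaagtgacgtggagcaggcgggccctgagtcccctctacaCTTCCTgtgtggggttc
Cd247, chr1:165788431-165788680, plus strand: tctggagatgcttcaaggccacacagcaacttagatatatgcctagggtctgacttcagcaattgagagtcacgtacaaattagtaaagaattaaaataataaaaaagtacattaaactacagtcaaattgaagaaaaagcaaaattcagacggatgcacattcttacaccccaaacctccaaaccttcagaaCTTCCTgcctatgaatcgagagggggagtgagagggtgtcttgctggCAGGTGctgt
The Cd3g window held 2 E-box matches and 1 GATA match, and the Cd3d window 1 ETS and 1 E-box match. Cd3e had 2 ETS matches, and Cd247 had 1 ETS and 1 E-box match. No match to the RUNX or TATA box letters was found in these 4 windows, and no marked matches overlapped. Of 32851 RefSeq windows of the same length, 29.5% held the ETS letters, 44.8% the E-box, 9.99% the GATA, 14.0% the RUNX and 12.4% the TATA box letters. A match is a description of the letters only, and the libraries hold no measurement of binding.

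Library totals ranged from 9542329 to 13753737 counts in spleen and from 15765906 to 37118494 in tumor, and the 10 genes together took between 0.0213% and 0.0605% of the counts. The label of NK cells was checked against marker lists. Summed over 10 NK genes, levels were 1278 to 1668 CPM (counts-per-million, over library totals scaled for composition) in the 6 spleen libraries but 42.5 to 195.5 CPM in the 6 tumor libraries. Ncr1, which encodes NKp46, ranged from 90.8 to 204 CPM in spleen and from 0.421 to 1.86 CPM in tumor. A list of 10 macrophage genes summed to 34.5 to 68.2 CPM in spleen WT and to 118.8 to 169.9 CPM in spleen cKO, without overlap. In the tumor WT libraries the same sum was 6198 to 12490 CPM, and in those of tumor cKO 892.9 to 2448 CPM. The 8 B-cell genes summed to between 2366 and 3075 CPM in spleen and to between 11.3 and 67.1 CPM in tumor. The NK sum was therefore lower in every tumor library than in every spleen library. In every spleen library, the 8 B-cell genes summed to more than the 10 NK genes. The libraries labelled as NK cells are therefore called spleen and tumor libraries below. In bulk samples a change in the share of cells of a type and a change in RNA per cell cannot be told apart.

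**Figure D1:**
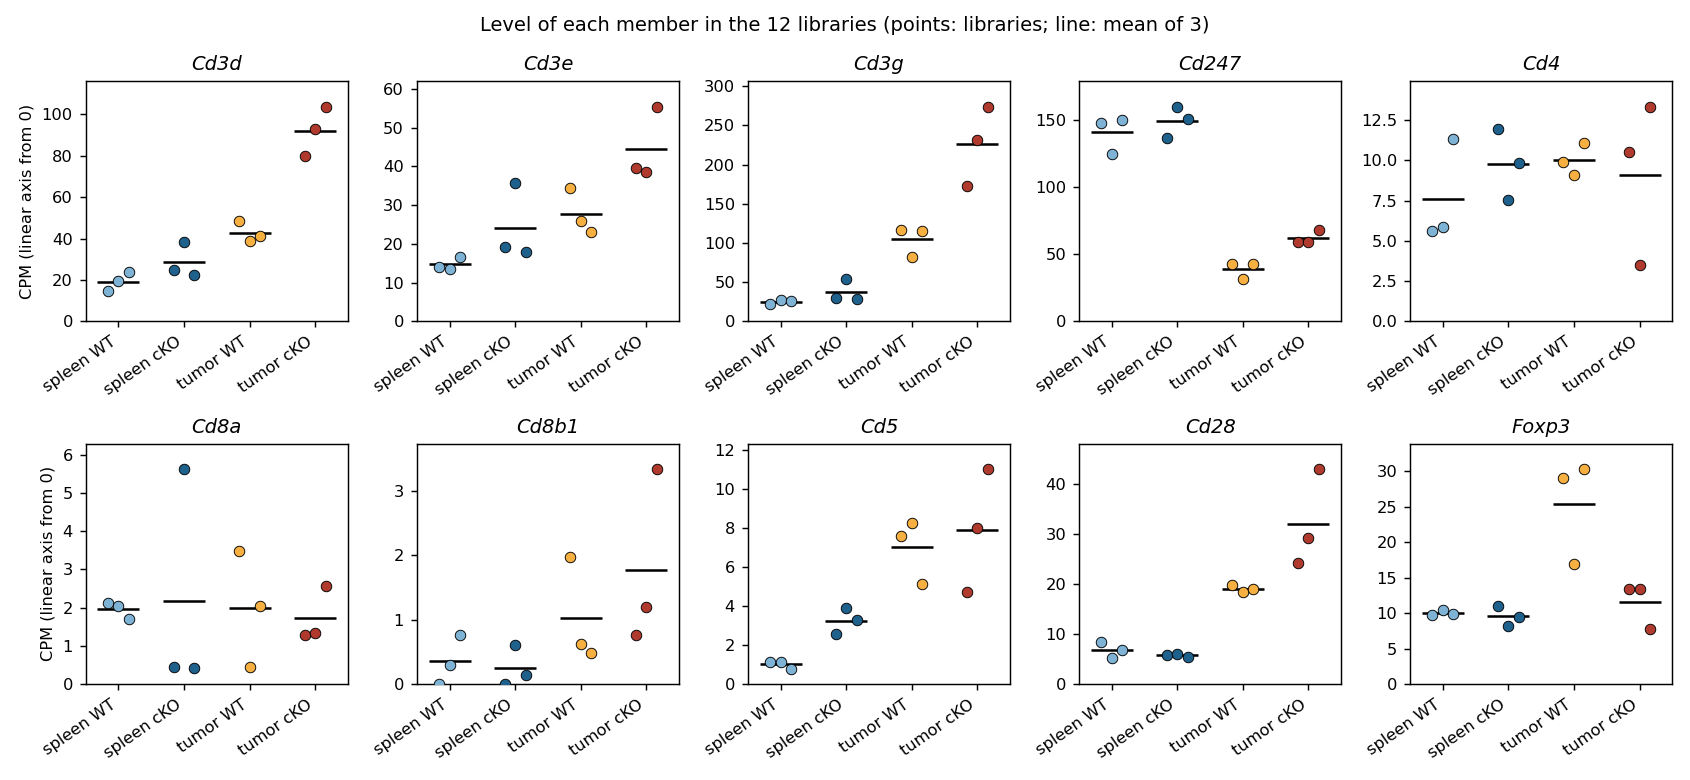
CPM of each of the 10 genes (linear axes from 0, 1 scale per panel) in the 4 groups, spleen on the left and tumor on the right of each panel, WT before cKO; points are libraries and lines are means of 3. Cd3d, Cd3e and Cd3g were highest in tumor cKO, Cd247 was highest in spleen, and Foxp3 was highest in tumor WT.

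The delta, epsilon and gamma chains were lowest in spleen WT and highest in tumor cKO. Between tumor WT and tumor cKO, Cd3d and Cd3g passed the test at about the same log2 fold change, and Cd3e moved in the same direction but missed the threshold. All 3 genes were also higher in tumor than in spleen in both genotypes. In spleen, none of them passed the test between cKO and WT.

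Cd3d, the delta chain (chromosome 9, 44981786 to 44987339), measured 14.5, 19.3 and 23.6 CPM in spleen WT and 25.0, 38.5 and 22.5 CPM in spleen cKO. In tumor it measured 48.2, 38.6 and 41.3 CPM in WT and 80.0, 92.8 and 103.6 CPM in cKO. Every tumor cKO library was above every tumor WT library, whereas the spleen groups overlapped. The log2 fold change of cKO over WT was 1.11 ± 0.21 (SE) in tumor, with an adjusted p of 0.0015 from edgeR's quasi-likelihood test, adjusted over the 16831 genes tested. In spleen it was 0.58 ± 0.22, with an adjusted p of 0.999. Group means ran from 19.1 ± 4.57 CPM (SD, n = 3) in spleen WT through 28.6 ± 8.63 in spleen cKO and 42.7 ± 4.97 in tumor WT to 92.1 ± 11.8 in tumor cKO.

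Cd3g, the gamma chain (chromosome 9, 44969572 to 44980431), measured 21.9, 27.7 and 26.3 CPM in spleen WT and 29.7, 54.1 and 28.5 CPM in spleen cKO. The tumor WT libraries held 116.0, 82.6 and 115.2 CPM and the tumor cKO libraries 173.2, 231.4 and 273.7 CPM. No 2 groups overlapped, and the order of the groups was that of Cd3d. In tumor the log2 fold change of cKO over WT was 1.11 ± 0.24 (adjusted p = 0.00387), and in spleen it was 0.56 ± 0.25 (adjusted p = 1). Between tissues the fitted difference was larger than for Cd3d or Cd3e, at 2.05 ± 0.26 in WT (adjusted p = 2.19e-05) and 2.60 ± 0.26 in cKO (adjusted p = 3.55e-06).

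Cd3e, the epsilon chain that pairs with both delta and gamma (chromosome 9, 44998740 to 45009627), measured 14.1, 13.5 and 16.6 CPM in spleen WT and 19.1, 35.6 and 17.8 CPM in spleen cKO. Tumor WT held 34.4, 25.8 and 23.1 CPM and tumor cKO 39.5, 38.6 and 55.4 CPM. The tumor cKO libraries all lay above the tumor WT libraries, and the ranges of spleen cKO and tumor WT overlapped. The fitted log2 fold change of cKO over WT in tumor was 0.68 ± 0.26 (95% interval 0.13 to 1.23), with an adjusted p of 0.0509. This value was on the edge of the threshold: it was 0.0336 with DESeq2, 0.0197 without a composition factor, 0.0165 without spleen cKO replicate 2, 0.0431 without spleen cKO replicate 3 and 0.0344 without tumor WT replicate 1. Over its 19 alternatives 8 fell under 0.05 and 11 stayed above it, with adjusted p from 0.00771 to 0.253 and log2 fold changes from 0.45 to 0.87. In spleen the log2 fold change was 0.71 ± 0.26 (adjusted p = 0.985). Spleen cKO replicate 2 had the highest Cd3d, Cd3e and Cd3g of the 6 spleen libraries, and without it the spleen values were 0.31, 0.32 and 0.20. Cd3e shares 135 exonic bases, 3.31% of its length, with an opposite-strand gene of the count table.

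Cd247, the zeta chain, had the reverse order of tissues. It measured 148.1, 124.7 and 150.3 CPM in spleen WT and 136.5, 160.0 and 151.1 CPM in spleen cKO. In tumor it measured 43.0, 31.8 and 42.6 CPM in WT and 59.1, 58.9 and 68.4 CPM in cKO. The spleen groups overlapped, both lay above all tumor libraries, and tumor cKO lay above tumor WT. Cd247 was lower in tumor than in spleen by a log2 fold change of -1.85 ± 0.14 in WT (adjusted p = 2.17e-07) and of -1.26 ± 0.14 in cKO (adjusted p = 5.46e-06). Within tumor it was higher in cKO, by 0.67 ± 0.14 (adjusted p = 0.0023), and in spleen the change was 0.08 ± 0.14 with a 95% interval of -0.21 to 0.38.

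The Cd247 counts carry a limit. On chromosome 1 (165788681 to 165877277) the gene shares 3007 exonic bases, 56.4% of its length, with the opposite-strand gene Pou2f1, which encodes the transcription factor Oct-1. It also shares 206 bases with Gm16565 on its own strand. The counting's strand setting was not given in the sources used here, and without strand reads over the shared bases cannot be told apart. Pou2f1 averaged 71.5 ± 11.5 and 65.9 ± 3.45 CPM in spleen WT and cKO (SD, n = 3), and 24.3 ± 3.64 and 32.6 ± 3.74 CPM in tumor WT and cKO. It passed the same tests in the same directions, at -1.56 ± 0.16 for tumor over spleen in WT, -1.02 ± 0.15 in cKO and 0.42 ± 0.15 for cKO over WT in tumor (adjusted p = 0.0447). Cd247 had between 112.1 and 257.4 counts per 100 Pou2f1 counts. Over the 12 libraries the log2 CPM of the pair correlated at a Pearson r of 0.946, but at -0.143 over the 6 spleen and 0.616 over the 6 tumor libraries. These points share libraries, depth and scaling, and the part of shared reads in the Cd247 differences was not tested.

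**Figure D2:**
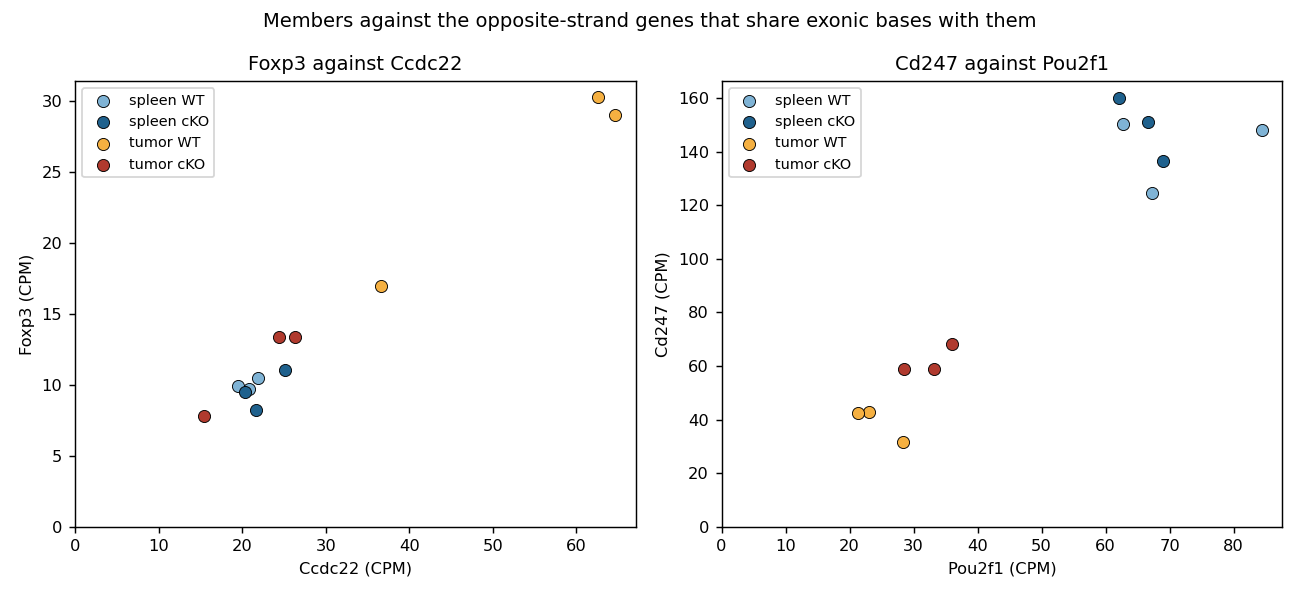
Foxp3 against Ccdc22 (left) and Cd247 against Pou2f1 (right), in CPM on linear axes from 0, with 1 point per library colored by group. Foxp3 and Ccdc22 lie close to a line through all 12 libraries, while Cd247 and Pou2f1 form a spleen and a tumor cluster.

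The coreceptor genes were low throughout and did not pass the test between genotypes. Cd4, the coreceptor of helper and regulatory T cells (chromosome 6, 124864692 to 124888221), measured 5.62, 5.88 and 11.3 CPM in spleen WT and 11.96, 7.52 and 9.81 CPM in spleen cKO. Tumor WT held 9.88, 9.09 and 11.1 CPM and tumor cKO 10.5, 3.49 and 13.3 CPM. All 4 groups overlapped. The log2 fold change of cKO over WT was 0.37 ± 0.42 in spleen (95% interval -0.53 to 1.27) and -0.13 ± 0.41 in tumor (-1.01 to 0.75). The tumor value turned positive, at 0.05, without a composition factor.

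Cd8a and Cd8b1, the alpha and beta chains of the CD8 coreceptor, lie 35932 bases apart on chromosome 6. Cd8a had 28, 27 and 18 counts in spleen WT, 6, 56 and 6 in spleen cKO. In tumor it had 60, 16 and 34 counts (WT) and 30, 22 and 66 (cKO). That is 0.426 to 5.61 CPM, with both the highest and the lowest level in spleen cKO. Cd8b1 had 0, 4 and 8 counts in spleen WT, 0, 6 and 2 in spleen cKO. The tumor counts were 34, 22 and 8 (WT) and 18, 20 and 86 (cKO). The 2 counts of 0 allow up to 0.228 CPM in spleen WT replicate 1 and 0.220 CPM in spleen cKO replicate 1, for counting error only. These limits treat each count as a separate event and would be higher if both mates of a pair were counted. At this depth no genotype difference was detectable: the tumor log2 fold changes were -0.19 ± 0.89 for Cd8a (95% interval -2.12 to 1.75) and 0.80 ± 0.99 for Cd8b1 (-1.34 to 2.94). The Cd8a tumor value turned positive, at 0.01, without a composition factor. In cKO mice Cd8b1 was higher in tumor than in spleen, by 2.92 ± 1.17 (adjusted p = 0.0449). Leaving out spleen WT replicate 2 gave an adjusted p of 0.0582, spleen cKO replicate 1 0.13, spleen cKO replicate 3 0.124, tumor cKO replicate 2 0.0595 and tumor cKO replicate 3 0.189.

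Cd5 and Cd28 had different patterns. Cd5, an inhibitory receptor of T cells and some B cells (chromosome 19, 10718143 to 10738974), measured 1.14, 1.13 and 0.756 CPM in spleen WT and 2.57, 3.91 and 3.27 CPM in spleen cKO. In tumor it measured 7.62, 8.28 and 5.12 CPM in WT and 4.70, 7.996 and 11 CPM in cKO. The spleen groups did not overlap and the tumor groups did. The spleen counts were 15, 15 and 8 in WT and 35, 39 and 46 in cKO. The fitted spleen difference of cKO over WT, 1.67 ± 0.39 on the log2 scale (95% interval 0.82 to 2.52), had an unadjusted p of 0.000962 and an adjusted p of 0.558, so it did not pass over all genes; without a filter on low counts its adjusted p was 0.0387. In tumor the difference was 0.17 ± 0.34 (-0.56 to 0.90). Tumor exceeded spleen by 2.78 ± 0.39 in WT (adjusted p = 4.22e-05) and by 1.29 ± 0.35 in cKO (adjusted p = 0.00676).

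Cd28, the costimulatory receptor for CD80 and CD86 (chromosome 1, 60716800 to 60773359), measured 8.43, 5.20 and 6.81 CPM in spleen WT and 5.80, 6.01 and 5.401 CPM in spleen cKO. The tumor WT libraries were close together at 19.8, 18.3 and 19.0 CPM, and those of tumor cKO lay above them at 24.1, 29.0 and 42.8 CPM. The spleen groups overlapped and lay below all tumor libraries. In tumor, Cd28 was higher in cKO by 0.75 ± 0.22 on the log2 scale (adjusted p = 0.0181). This call depended on the highest library: without tumor cKO replicate 3 the value was 0.49 with an adjusted p of 0.117. The spleen difference was -0.25 ± 0.24 (95% interval -0.77 to 0.27). Tumor exceeded spleen by 1.48 ± 0.24 in WT (adjusted p = 0.00012) and by 2.48 ± 0.24 in cKO (adjusted p = 1.91e-06).

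Of the 10 genes, Foxp3 alone was called lower in tumor cKO than in tumor WT. It measured 29.0, 16.95 and 30.3 CPM in tumor WT and 13.4, 13.4 and 7.83 CPM in tumor cKO, and the groups did not overlap. In spleen it measured 9.72, 10.5 and 9.92 CPM in WT and 11.01, 8.22 and 9.45 CPM in cKO. The spleen groups overlapped each other and the range of tumor cKO. The log2 fold change of cKO over WT was -1.14 ± 0.26 in tumor (adjusted p = 0.00396) and -0.07 ± 0.27 in spleen (95% interval -0.64 to 0.50). Tumor exceeded spleen in WT by 1.34 ± 0.26 (adjusted p = 0.000653), and in cKO the difference was 0.26 ± 0.26 (adjusted p = 0.4).

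The Foxp3 counts carry a similar limit. On the X chromosome (7579676 to 7595243) Foxp3 shares 590 exonic bases, 14.8% of its length, with Ccdc22, which encodes a subunit of an endosomal trafficking complex and lies on the opposite strand (7593809 to 7605517). Foxp3 also shares 373 bases with Gm36995, on the strand opposite to Foxp3, and 267 with Ppp1r3fos, on its own strand. Each overlap was computed separately, so these bases may be partly the same. In all 12 libraries Foxp3 had between 37.96 and 54.72 counts per 100 Ccdc22 counts. Ccdc22 averaged 20.7 ± 1.19 CPM (SD, n = 3) in spleen WT, 22.4 ± 2.51 CPM in spleen cKO and 22.1 ± 5.79 CPM in tumor cKO. Its tumor WT mean was higher, at 54.6 ± 15.6 CPM. Its log2 fold change of cKO over WT in tumor was -1.31 ± 0.23 (adjusted p = 0.000895). The log2 CPM of the pair correlated at a Pearson r of 0.979 over 12 libraries, 0.995 over the 6 tumor and 0.433 over the 6 spleen libraries, and Ccdc22 ranked 4 of 10532 genes by likeness to Foxp3. Since the strand setting is not given, reads of Foxp3 and Ccdc22 over the shared bases cannot be told apart, and the share of the Foxp3 difference that comes from Foxp3 transcripts was not tested. The macrophage sums given above also moved with Foxp3 between these groups, and their part in the result was not tested. Within tumor WT, replicate 2 had the lowest Foxp3 and the highest macrophage sum, whereas within tumor cKO replicate 3 had the lowest of both, at 7.83 and 892.9 CPM.

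Counted together, 4 of the 10 genes were higher (Cd3d, Cd3g, Cd247 and Cd28) and 1 lower (Foxp3) in tumor cKO than in tumor WT. Of all genes tested, 38% were called in this comparison, 16.4% higher and 21.6% lower. The groups did not overlap for 6 of the 10 genes, against 50.3% of all genes. The median log2 fold change of the 10 genes was 0.67, and that of all genes -0.12. All genes shifted with the scaling, since their median was 0.06 without a composition factor and the share of calls that were higher went from 43.1% to 57.4%. The 5 calls kept their direction and their side of the threshold under that scaling. In spleen 0 of the 10 genes were called by edgeR, DESeq2 or limma-trend, against 0.0297%, 0.238% and 0.0594% of all genes. At an unadjusted p under 0.05 there were 4 by edgeR, 4 by DESeq2 and 3 by limma-trend, against 4.66%, 5.94% and 5.55% of all genes. The spleen groups did not overlap for 3 genes (Cd3e, Cd3g and Cd5), against 11.4% of all genes.

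**Figure D3:**
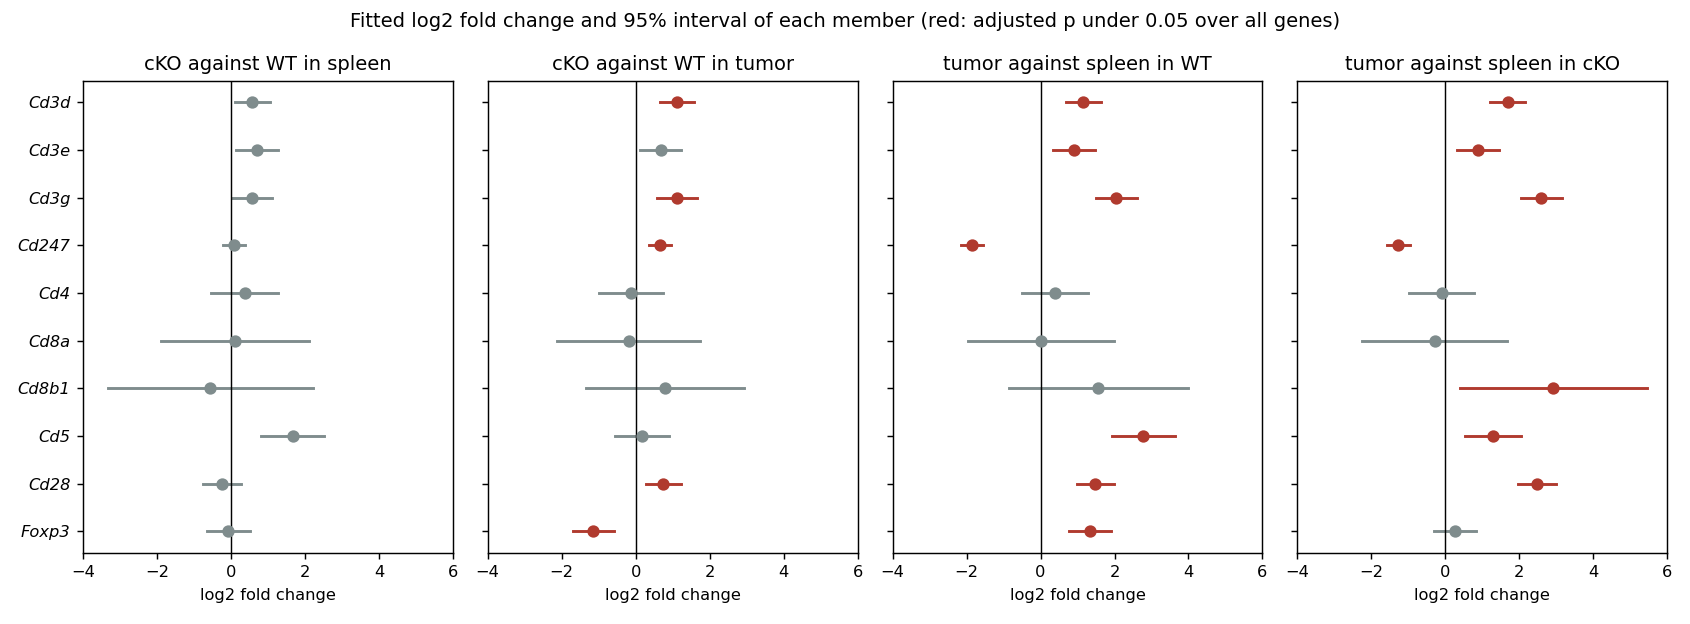
Fitted log2 fold changes (points) with 95% intervals (lines) of the 10 genes for the genotype comparison in each tissue (left pair) and for tumor against spleen in each genotype (right pair). Red marks an adjusted p under 0.05 over all genes: 0, 5, 7 and 7 genes from left to right.

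Between tissues, 6 of the 10 genes were higher and 1, Cd247, was lower in tumor in each genotype. In WT the 6 were Cd3d, Cd3e, Cd3g, Cd5, Cd28 and Foxp3, and of all genes 62% were called, 33.9% higher and 28.1% lower. In cKO Cd8b1 took the place of Foxp3, and of all genes 60.5% were called, 31.7% higher and 28.8% lower. Cd3d was higher in tumor by 1.16 ± 0.22 in WT (adjusted p = 0.000489) and 1.69 ± 0.22 in cKO (adjusted p = 2.38e-05). Cd3e was higher by 0.92 ± 0.26 (adjusted p = 0.00841) and 0.89 ± 0.26 (adjusted p = 0.00953). Tissue here also separates libraries with high NK and B-cell sums from libraries with high macrophage sums, and the part of these cells in the tissue differences was not tested.

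Whether the genotype effect itself differed between tissues was tested as an interaction. None of the 10 genes passed with edgeR, against 18.3% of all genes, and 4 had an unadjusted p under 0.05, against 33.3% of all genes. Their values, tumor minus spleen on the log2 scale, were 0.998 ± 0.33 for Cd28 (adjusted p = 0.0509), 0.59 ± 0.19 for Cd247 (0.0515), -1.07 ± 0.37 for Foxp3 (0.0589) and -1.50 ± 0.52 for Cd5 (0.0609). DESeq2 called these 4 genes, against 24.7% of all genes, and limma-trend called Cd28 and Cd247, against 21.1%. For Cd3d the difference was 0.53 ± 0.31 (adjusted p = 0.248) and for Cd3g 0.55 ± 0.35 (0.299). Without spleen cKO replicate 2 the Cd3g value was 0.92 with an adjusted p of 0.049. The difference for Cd3e was -0.027 ± 0.365 (adjusted p = 0.992), with the opposite sign without a composition factor and with limma-trend.

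Levels of different genes were compared per length, in the deposited RPKM values, which are reads scaled to gene length and library total. In spleen WT, Cd247 was the most abundant of the 10 at 26.8 ± 2.71 RPKM (SD, n = 3), ahead of Cd3d at 10.7 ± 2.48, Cd3g at 7.84 ± 0.91 and Cd3e at 3.66 ± 0.40. In tumor cKO, Cd3g led at 72.1 ± 16.3 RPKM, followed by Cd3d at 52.9 ± 6.95, with Cd247 at 12.1 ± 1.04 and Cd3e at 11.4 ± 2.37. The zeta chain was thus well above epsilon in spleen WT and close to it in tumor cKO. The remaining genes were lower: in tumor cKO, Cd28 held 5.44 ± 1.65 RPKM, Cd5 3.98 ± 1.59, Foxp3 3.01 ± 0.84, Cd4 2.35 ± 1.30, Cd8b1 1.24 ± 0.96 and Cd8a 0.493 ± 0.206. In tumor cKO the ranges of neighbours in this order overlapped, except those of Cd3d and Cd247 and those of Cd3e and Cd28.

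Ratios within a library do not depend on its depth or scaling. The log2 ratio per length of Cd247 over Cd3e was 2.87 ± 0.12 in spleen WT and 0.12 ± 0.33 in tumor WT (SD, n = 3). In the cKO groups it was 2.31 ± 0.48 in spleen and 0.11 ± 0.17 in tumor. Cd3g over Cd3e was 1.10 ± 0.23 in spleen WT against 2.24 ± 0.35 for tumor WT, and 0.96 ± 0.04 in spleen cKO against 2.66 ± 0.23 for tumor cKO. Cd3d over Cd3e was 1.80 ± 0.18 in tumor WT and 2.23 ± 0.19 in tumor cKO, without overlap. Cd4 over Cd3e was -1.44 ± 0.37 in tumor WT and -2.46 ± 0.86 in tumor cKO, also without overlap. Cd3e over the NK gene Ncr1 was negative in spleen, at -4.84 ± 0.23 (WT) and -3.89 ± 0.98 (cKO). It was positive in tumor, at 2.55 ± 0.21 (WT) and 4.73 ± 0.43 (cKO), so per length Cd3e was below Ncr1 in spleen and above it in tumor. In all, 11 ratios were compared in 4 comparisons; the exact permutation test of 3 libraries against 3, two-sided, cannot go below p = 0.1, and no adjusted p was below 0.22.

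The 3 CD3 genes of chromosome 9 varied together across libraries. Over the 12 libraries the log2 CPM of Cd3d correlated with Cd3g at a Pearson r of 0.972 and with Cd3e at 0.946. Within the 6 spleen libraries these were 0.930 and 0.919, and within the 6 tumor libraries 0.973 and 0.908. Cd247 against Cd3d was -0.621 over all 12, 0.439 within spleen and 0.952 within tumor. Foxp3 against Cd3d was 0.186 over all 12, -0.544 within spleen and -0.825 within tumor. All are descriptions of libraries that share groups, depth and scaling. The genes most like the mean of Cd3d, Cd3e and Cd3g over the 12 libraries, outside the 10, were Cct4 (r = 0.978), Eif2b3 (0.974), Ift74 (0.967), Phb2 (0.966), Ppa1 (0.966) and Wdr60 (0.964). By known role, Cct4 is a chaperonin subunit, Eif2b3 a translation factor subunit, Phb2 a prohibitin of mitochondria and Ppa1 a pyrophosphatase. Over the 6 tumor libraries the genes most like Foxp3 were Csf2rb2, Tmem198b and Ninj1 (each r = 0.999) and Srgap3 (0.998). Csf2rb2, a beta subunit of the interleukin-3 receptor, averaged 286.1 ± 125.2 CPM in tumor WT and 80.4 ± 32.2 CPM in tumor cKO (SD, n = 3).

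Genes that act next to the receptor changed in both directions. Of 19 TCR-proximal signalling genes, 10 were higher and 3 lower in tumor cKO than in tumor WT, with a median log2 fold change of 0.75, and the calls made up 68.4% of the list against 38% of all genes. Lat, the membrane scaffold phosphorylated by ZAP-70, went from 67.6 ± 1.81 CPM (SD, n = 3) in tumor WT to 208.1 ± 38.7 CPM in tumor cKO, a log2 fold change of 1.62 ± 0.14 (adjusted p = 1.43e-05). Tespa1, a regulator of receptor signalling in thymocytes, rose from 10.6 ± 1.57 to 27.9 ± 1.94 CPM, by 1.38 ± 0.13 (adjusted p = 2.84e-05). Lck, the kinase of the coreceptors, rose by 0.82 ± 0.16 (adjusted p = 0.00137). Fyn, the related kinase, fell from 255.2 ± 73.4 to 114.2 ± 19.6 CPM, a log2 fold change of -1.16 ± 0.20 (adjusted p = 0.000691). In spleen 0 of the 19 passed, against 0.0297% of all genes, with a median of -0.01. The smallest p was that of Trat1, at 1.18 ± 0.34 (adjusted p = 0.835). The other 3 with the smallest p in spleen were Cd6 at 0.78 ± 0.44, Plcg1 at 0.29 ± 0.17 and Sit1 at 0.39 ± 0.33. Several of these genes, Lck and Lat among them, are also used by NK cells.

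The 7 constant genes of the T-cell receptor are more specific to T cells, although innate lymphocytes can carry germline transcripts of them. Of the 7, 4 were higher and 2 lower in tumor cKO (85.7% called, against 38% of all genes), with a median of 0.75. Trac, the alpha constant gene, went from 36.2 ± 3.49 to 81.3 ± 19.1 CPM in tumor (1.17 ± 0.25, adjusted p = 0.00273), close in size to Cd3d and Cd3g. Tcrg-C2 went from 47.6 ± 3.35 to 119.3 ± 20.5 CPM (1.32 ± 0.15, adjusted p = 5.48e-05), and Tcrg-C1 from 15.1 ± 1.602 to 43.4 ± 4.37 CPM (1.52 ± 0.35, adjusted p = 0.0049). Trdc, the delta constant gene, fell from 3.06 ± 1.91 to 0.629 ± 0.093 CPM (-2.24 ± 0.44, adjusted p = 0.00157). The beta constant genes did not rise with Trac at the threshold. Trbc1 was called lower, from 8.64 ± 5.57 to 3.60 ± 0.48 CPM (-1.24 ± 0.38, adjusted p = 0.0228), with overlapping groups. Trbc2 did not pass (0.49 ± 0.18, adjusted p = 0.0503). The gamma constant genes Tcrg-C1 and Tcrg-C2 are near-identical copies, so their reads may be split between them. In spleen 1 of the 7 passed (14.3%, against 0.0297% of all genes). It was Tcrg-C2, with 2.79 ± 0.45 CPM for WT and 6.86 ± 0.38 CPM for cKO (1.29 ± 0.18, adjusted p = 0.0303). The spleen values of Trac (0.98 ± 0.28, adjusted p = 0.835), Trbc2 (0.22 ± 0.19) and Tcrg-C1 (0.33 ± 0.42) did not pass. Summed over the 7 genes, the spleen WT libraries held 59.96 to 78.4 CPM and those of spleen cKO 74.1 to 95.7 CPM. The tumor sums were 130.5 to 141.5 CPM (WT) and 251.9 to 345.7 CPM (cKO), without overlap.

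Among 14 regulatory T-cell and costimulation genes, 12 were tested, and in tumor cKO 1 was higher and 3 lower, with a median of -0.77. These calls made up 33.3% of the tested list, against 38% of all genes. Lrrc32, which encodes the regulatory T-cell surface protein GARP, went from 17.1 ± 6.50 to 3.31 ± 1.39 CPM (-2.38 ± 0.53, adjusted p = 0.00512). Ctla4, the inhibitory receptor that competes with CD28, went from 30.8 ± 19.4 to 9.31 ± 3.17 CPM (-1.72 ± 0.51, adjusted p = 0.0193), and its groups overlapped. Tnfrsf9, which encodes 4-1BB, had -1.09 ± 0.39 (adjusted p = 0.047), also with overlap. Ikzf2, which encodes Helios, moved the other way, from 30.1 ± 8.36 to 55.4 ± 8.99 CPM (0.88 ± 0.20, adjusted p = 0.00437). In spleen 0 of the 12 passed, against 0.0297% of all genes. The smallest p were those of Tnfrsf4 (1.119 ± 0.48), Tnfrsf9 (0.87 ± 0.41), Nt5e (0.83 ± 0.45) and Lrrc32. Lrrc32 had no counts in spleen cKO and at most 0.301 CPM in spleen WT.

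Of 14 transcription factors and related genes of the CD4 and CD8 lineages, 13 were tested. In tumor cKO 5 were higher and 7 lower (92.3% called, against 38% of all genes), with a median of -0.94. Eomes, among the 7 lower, is also in the NK list, so its call is counted in both lists. Bcl11b, a factor of T-cell commitment, went from 24.8 ± 4.77 to 120.5 ± 19.1 CPM (2.28 ± 0.20, adjusted p = 1.6e-05). Tcf7, which encodes TCF-1, went from 95.95 ± 13.6 to 307.8 ± 53.3 CPM (1.68 ± 0.16, adjusted p = 2.84e-05), and Tox from 9.68 ± 2.42 to 30.7 ± 4.14 CPM (1.66 ± 0.22, adjusted p = 0.00017). Zbtb7b, which encodes the CD4-lineage factor ThPOK, fell from 26.8 ± 1.36 to 12.3 ± 2.09 CPM (-1.124 ± 0.15, adjusted p = 0.000157). Runx3, of the same list, fell by a similar amount, from 107.8 ± 25.6 to 53.1 ± 0.998 CPM (-1.02 ± 0.18, adjusted p = 0.000753). In spleen 0 of the 13 passed, against 0.0297% of all genes. The smallest p were those of Bcl11b (0.48 ± 0.20), Gata3 (-0.40 ± 0.24), Bcl6 (-0.36 ± 0.23) and Tcf7 (-0.20 ± 0.16).

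**Figure D4:**
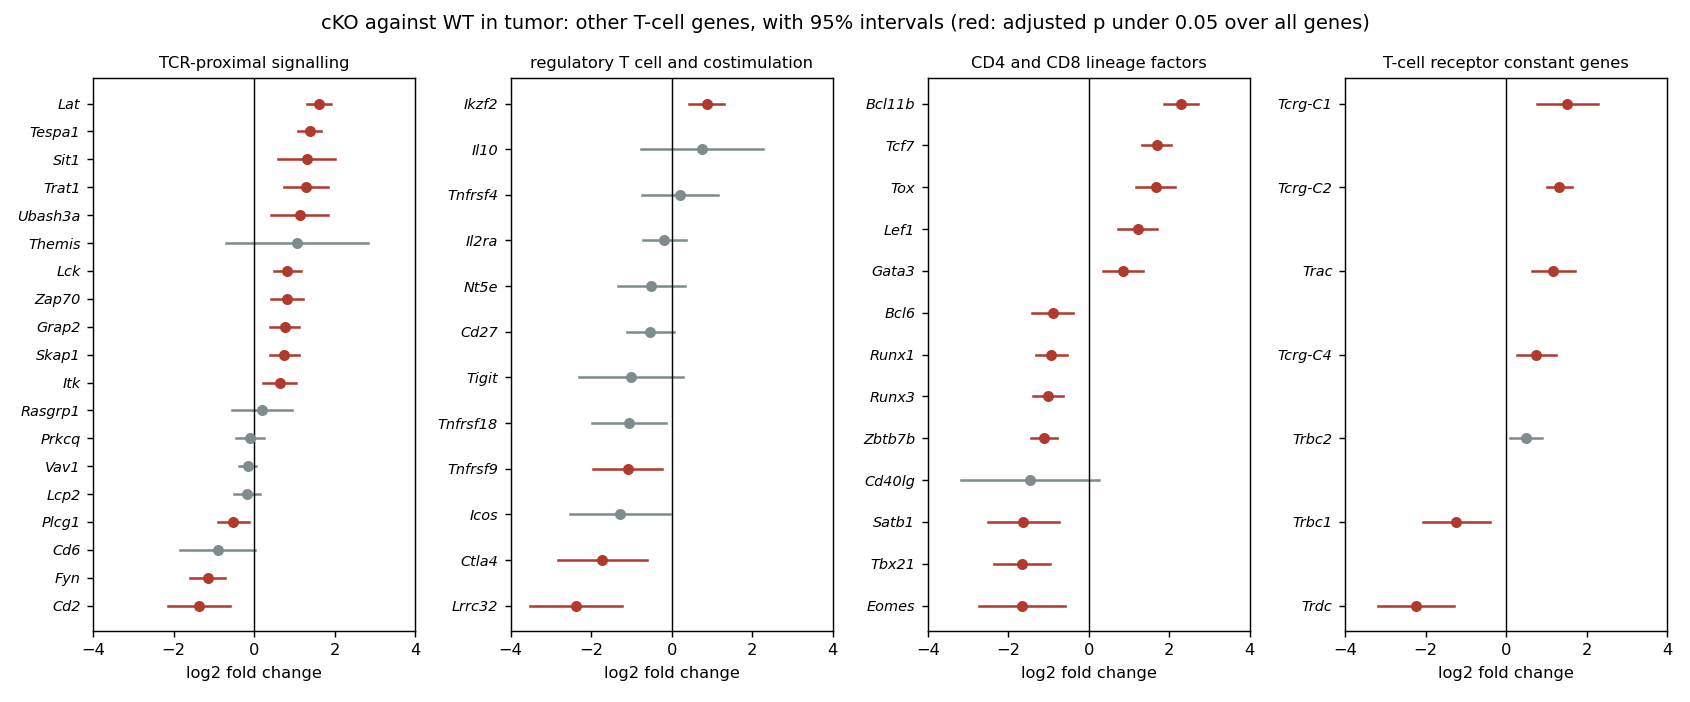
Fitted log2 fold changes (points) with 95% intervals (lines) of cKO against WT in tumor for the tested genes of 4 T-cell gene lists, sorted within each list. Red marks an adjusted p under 0.05 over all genes; 10, 1, 5 and 4 genes were higher and 3, 3, 7 and 2 lower in the lists from left to right.

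Beside these changes, 9 of 10 macrophage genes and 6 of 10 NK genes were lower in tumor cKO than in tumor WT, with medians of -2.47 and -1.43. The NK sums of these groups overlapped, at 195.5, 55.7 and 155.2 CPM in WT and 62.9, 56.8 and 42.5 CPM in cKO. Among the NK calls, Klrb1c, Gzma, Prf1 and Eomes had overlapping groups. Of the other lists, 4 of 7 genes of type 1 conventional dendritic cells were lower and 1 higher, 3 of 6 tested genes of type 2 were lower, 3 of 6 tested innate lymphoid genes were lower, and of 8 B-cell genes 2 were higher and 1 lower. In plasmacytoid dendritic cells 1 of 4 tested genes was lower. Siglech, a defining gene of those cells, had no counts in spleen and at most 0.362 CPM in tumor. Over all genes tested, 38% were called in this comparison, 16.4% higher and 21.6% lower. The called share was 37.5% for the B-cell list and 25% for the plasmacytoid list, so neither was above that of all genes. The part of the listed cell types in the higher CD3 levels of tumor cKO was not tested. In spleen the 10 T-cell genes had a median of 0.24. The macrophage list had 0 of 10 genes called there, against 0.0297% of all genes, with a median of 1.26 and all 10 values positive. The part of macrophages in the spleen values of the 10 T-cell genes was not tested.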

How the data were processed

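Bulk RNA sequencing of 12 mouse libraries, 3 in each of 4 groups, was analysed from the deposited tables. Reads had been mapped to mm10 (GRCm38) with TopHat2 2.0.6, per the submitters' processing notes; the counting program and its strand setting were not given in the sources used here. Deposited by the authors were whole-number counts per gene, without normalization, for 33100 genes. RPKM values were also deposited by the authors, and 100% of those above 0 could be recomputed from the counts (relative tolerance 0.001). Between 68.8% and 73.3% of counts from 1 to 49 were even, as when both mates of a pair are counted, so counting noise is larger than the counts imply. The precision of each value is limited by 3 libraries a group.

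Counts were tested in R 4.3.3 with edgeR 4.0.16 (quasi-likelihood F-test, robust, TMM composition factors, filterByExpr). All 12 libraries were fitted with 1 mean per group (8 residual degrees of freedom), 16831 genes were kept, and p-values were adjusted by the Benjamini-Hochberg method over all of them, with calls under 0.05. CPM used library totals times the TMM factor. Ratios had 0.5 reads added to each count. The test script was checked on simulated counts. Alternatives were DESeq2 1.42.0, limma 3.58.1 (limma-trend on log2 of RPKM + 0.1), no composition factor, no filter, a replicate block, only the 6 libraries compared, and leaving out libraries. Replicates were also compared in pairs by chi-square per degree of freedom, which grows with depth. Tumor WT replicate 2 gave 176.3 and 170.2, against 30.7 for replicates 1 and 3. Tumor cKO replicate 3 gave 68.5 and 58.0, against 17.6 for replicates 1 and 2. These 2 libraries were also left out together. Deviations from the group mean correlated at -0.088 to 0.111 between libraries with the same replicate number. Libraries with different numbers were not compared, so these values cannot decide whether the numbers mark pairs. The labels do not say so, and the main fit did not use the numbers as pairs.

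Named genes were the 10 genes in every comparison, up to 4 genes of each pathway list with the smallest p per genotype comparison, and the genes most alike the CD3 mean (6) and Foxp3 (4) by Pearson correlation among genes whose mean log2 CPM was 2 or more. Trbc1, Trbc2, Runx3, Klrb1c, Gzma, Prf1 and Eomes were also named for tumor, outside this rule. The genes and lists were chosen with earlier results of these data known. The knocked-out gene and 1 gene of the signalling list are not reported here, and the genotype labels were therefore not tested against the former. Exon overlaps were computed from the exons of the count table. Promoter windows and their background came from RefSeq (GRCm38.p6).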

Additional observations from a re-analysis of the deposited data

How the results depend on the processing

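The count of the 10 genes called in tumor, cKO against WT, was 5 and stayed between 4 and 6; tumor against spleen gave 7 in WT under every alternative and 6 to 7 in cKO. In spleen, cKO against WT gave 0, and 1 (Cd5) without a filter. The interaction gave 0, but 4 with DESeq2, 2 without a composition factor, 1 without a filter, 2 with limma-trend, 2 without tumor WT replicate 2 and tumor cKO replicate 3 together, and 0 to 1 when leaving out each replicate. With the replicate block the counts were 0 in spleen, 5 in tumor, 7 in WT, 6 in cKO (Cd8b1 lost, adjusted p = 0.0782) and 0 for the interaction; all genes called in spleen went from 5 to 2. All genes called in spleen numbered 40 with DESeq2, 194 higher and 36 lower without a filter, 10 with limma-trend, 31 with only the 6 libraries, 34 without both named libraries, and 0 to 8 when leaving out each replicate. The cause was not tested.

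Over 938 values of single genes under alternatives, 868 kept direction and side, 27 newly passed, 9 no longer passed and 34 changed sign, none of them of a called value. Sign changes of cKO over WT (log2) were, in spleen, Cd8a with the replicate block (-0.073) and limma-trend (-0.55). In tumor they were Cd4 (0.047) and Cd8a (0.011) without a composition factor, Cd8a with limma-trend (0.18), and Cd8b1 (-0.32) and Cd5 (-0.005) without both libraries. For tumor over spleen they were Cd8a in WT without a composition factor (-0.15) and with limma-trend (-0.35), and in cKO with limma-trend (0.38). For the interaction they were Cd3e without a composition factor (0.13) and with limma-trend (0.20), and Cd8a with limma-trend (0.73). Leaving out each replicate gave ranges across 0: in spleen Cd8a -2.16 to 0.60, Cd8b1 -2.14 to 0.58 and Foxp3 -0.181 to 0.029; in tumor Cd4 -0.50 to 0.26, Cd8a -0.67 to 0.51, Cd8b1 -0.047 to 1.67 and Cd5 -0.15 to 0.44; tumor over spleen, Cd8a -0.68 to 0.51 in WT, and Cd4 -0.47 to 0.29 and Cd8a -0.78 to 1.98 in cKO; interaction, Cd3e -0.21 to 0.37 and Cd8a -0.78 to 1.98. Counts under 100 limit Cd8a and Cd8b1 throughout.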
